A study of Homo sapiens with 6 samples.

Results

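The genes analysed here are 9 components of interferon signalling: the receptor chain IFNAR1, the receptor-bound kinases JAK1 and TYK2, the signal transducer STAT2, and the interferon regulatory factors IRF1, IRF2, IRF3, IRF7 and IRF9. They were taken by gene symbol from the table of expression values, which lists 25545 genes, and all 9 had a row and were among the 10721 genes tested. BT-549, an established line of triple-negative breast cancer (TNBC) cells, was transfected with a control siRNA (CsiRNA, 3 libraries) or with an siRNA against the long noncoding RNA NEAT1 (NEAT1siRNA, 3 libraries), and RNA was isolated 48 h later in both groups. The sample titles carry the prefix "tet" although the treatment given is a transfection. A single NEAT1 siRNA was used and both groups received lipid-transfected siRNA, so the loss of NEAT1 and any other effect of that siRNA cannot be told apart, and untransfected cells were not analysed here. The labels give triplicate cultures and name no batch. The comparison asks whether silencing NEAT1 in these cells changes the expression of the interferon signalling machinery.

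Type I interferons bind a receptor made of IFNAR1 and IFNAR2, which carries the kinases TYK2 and JAK1. The kinases phosphorylate STAT2, which joins IRF9 in the transcription factor ISGF3, and ISGF3 binds the interferon-stimulated response element (ISRE) of interferon-stimulated genes. Interferon-γ uses another receptor with JAK1 and JAK2, and the element of its target genes is the gamma-activated site (GAS). IRF3 and IRF7 switch on interferon genes after viral nucleic acids are sensed, IRF1 is itself induced by interferon and activates target genes, and IRF2 binds the same sites as IRF1 and can repress them. STAT2, IRF9, IRF7 and IRF1 are known both as parts of the pathway and as genes that interferon induces.

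Expression is given as TPM, a level per transcript length scaled to a fixed total in each library, which the authors computed. Recovered reads, obtained by joining the deposited tables, summed to between 15788794 and 20342034 per library. NEAT1, the targeted gene, had 13.4, 7.68 and 10.8 TPM with CsiRNA and 4.36, 2.96 and 2.73 TPM with NEAT1siRNA, a mean at 31.5% of the control (log2 fold change -1.41, adjusted p = 1.21e-07 from limma). The mesenchymal markers VIM, CDH2, FN1, ZEB1 and SPARC were present in every library (13.5 TPM or more), whereas ESR1 was at 0 and the immune markers PTPRC, CD3E and ITGAX stayed at or under 0.0580 TPM. CD68 was at 23.2 to 29.2 TPM and ERBB2 at 5.76 to 6.36 TPM. Of all genes tested, 535 were higher (4.99%) and 963 lower (8.98%) with NEAT1siRNA at a Benjamini-Hochberg adjusted p under 0.05 in limma, 14% in all. The total of 1498 was 759 without CsiRNA replicate 1 and 838 without NEAT1siRNA replicate 3, and centring each library on its median turned the split into 1158 higher and 954 lower. Within a group, expression also moved with the GC content of transcripts, most in NEAT1siRNA replicates 1 and 2 (Spearman rho of 0.68 and -0.73 across 10106 genes, which are not independent replicates).

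The promoters of these genes were searched for the letters of 2 interferon elements. RefSeq windows (GRCh38.p14) of the 250 bases before the start site were found for IFNAR1, JAK1, TYK2, STAT2, IRF9 and IRF1, and none was found for IRF2, IRF3 and IRF7. Each was searched on both strands for the ISRE core, GAAA and a second GAAA with 2 bases between them, and for the GAS motif TTCNNNGAA. The GAS motif occurred in 2 of the 6 genes, IRF1 and IRF9, against 6.57% of all 35116 windows and 9 of 30 interferon-stimulated effector genes. The ISRE core occurred in 0 of the 6, against 3.02% of all windows, and in 21 of the 30 effector genes (11 of the 15 that passed the test for NEAT1siRNA and 10 of the 15 that did not). A gene was counted if any of its windows held the motif (JAK1 had 3 windows and IFNAR1 had 2), so gene counts and shares per window are unlike measures. Effector genes without a window were left out: 30 of the 36 tested had one, and 15 of the 17 that passed. Stretches of IFI44L and IFIT1, both called higher with NEAT1siRNA as given further on, are shown beside those of the IRF genes so that the elements can be compared. Capitals mark the GAS motif in the IRF genes and the ISRE core in the effector genes (as its reverse complement in IFIT1), and all are written 5′ to 3′ on the strand of the gene.
IRF1, chr5:132490864-132490922, minus strand: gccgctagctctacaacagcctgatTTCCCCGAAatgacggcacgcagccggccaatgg
IRF9, chr14:24161177-24161235, plus strand: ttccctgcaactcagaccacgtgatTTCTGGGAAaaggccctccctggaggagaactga
IFI44L, chr1:78620350-78620409, plus strand: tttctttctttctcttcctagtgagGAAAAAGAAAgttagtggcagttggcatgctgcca
IFIT1, chr10:89392495-89392554, plus strand: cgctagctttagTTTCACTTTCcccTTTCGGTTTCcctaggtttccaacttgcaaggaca
IFI44L and IFIT1 hold 2 ISRE cores each in their windows, and the one of IFI44L that begins 164 bases before the start site lies outside the stretch shown. The GAS motif begins 124 bases before the start site in IRF1 and 63 bases before it in IRF9. IRF9 overlaps another gene of the same strand, whose extent over this stretch is not given here. A match of letters is a description and not evidence of binding. A missing match does not show that an element is absent, since only fixed letters and spacings in 250 bases were searched.

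In control cells the 9 genes spanned an 83.3-fold range of TPM. JAK1 was the highest, at 81.1 ± 7.64 TPM (SD, n = 3), followed by IRF3 at 19.6 ± 1.97 and IFNAR1 at 18.5 ± 1.71 TPM, whose ranges overlapped. IRF9 (12.1 ± 0.865 TPM) and IRF2 (11.3 ± 0.464 TPM) also overlapped in range, and each of the genes after them lay below its neighbour in every library: IRF1 at 7.96 ± 0.736, TYK2 at 6.28 ± 0.454, STAT2 at 4.51 ± 0.538 and IRF7 at 0.974 ± 0.189 TPM. With NEAT1siRNA the order was the same except that IRF2 and IRF9 exchanged places, again with overlapping ranges. STAT2 and IRF7 were the lowest of the 9 in both groups, whereas IRF9 and IRF1, which interferon also induces, lay above TYK2.

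**Figure D1:**
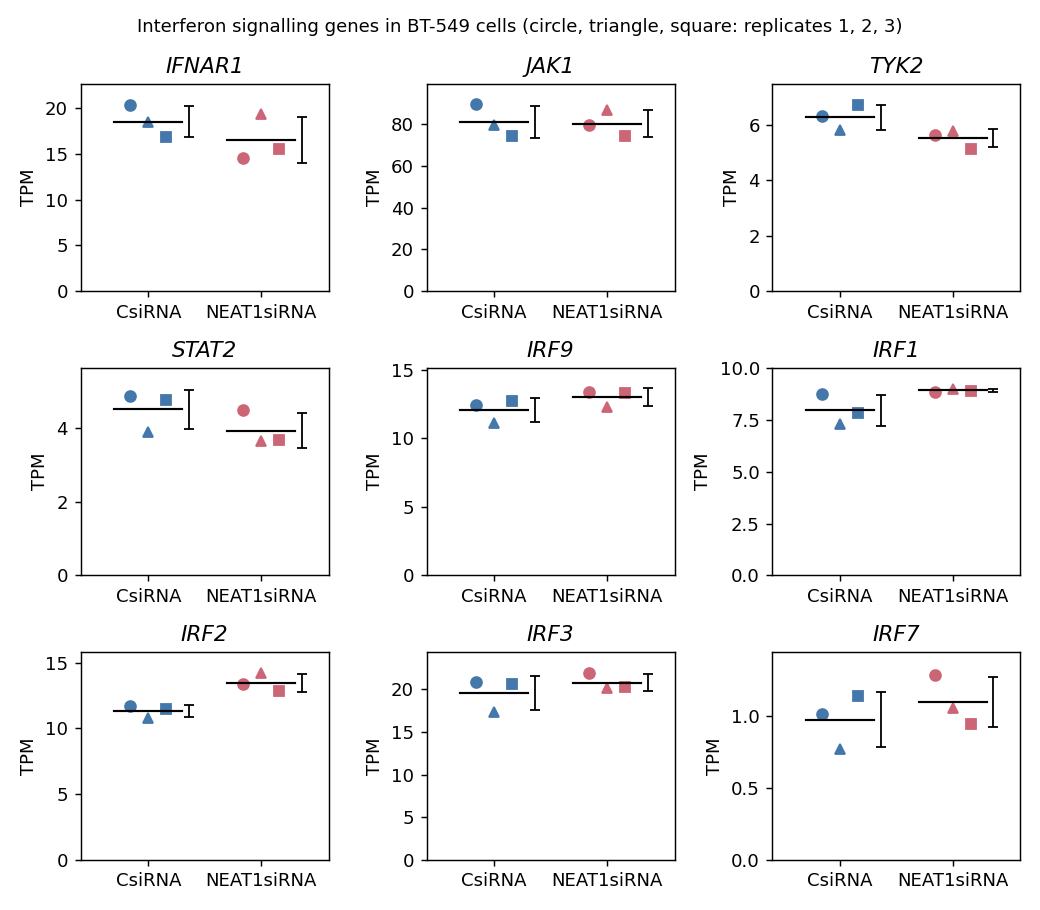
TPM (vertical axes, linear from 0) of the 9 interferon signalling genes in the CsiRNA (blue) and NEAT1siRNA (red) libraries. Symbols are replicates 1 (circle), 2 (triangle) and 3 (square), horizontal lines are group means and bars are ± 1 SD, and the groups separate only for IRF1, IRF2 and TYK2.

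The receptor chain and its kinases had negative fold changes after NEAT1 silencing, and none passed the test. IFNAR1 (chromosome 21 of GRCh38, 33324387 to 33359864, plus strand) had 20.3, 18.4 and 16.9 TPM in CsiRNA replicates 1 to 3 and 14.6, 19.3 and 15.6 TPM in NEAT1siRNA replicates 1 to 3. NEAT1siRNA replicate 2 alone lay among the controls, and the groups overlapped. The log2 fold change of IFNAR1 was -0.17 (95% confidence interval -0.38 to 0.049, adjusted p = 0.324 from limma). Without NEAT1siRNA replicate 2 it was -0.28 (adjusted p = 0.0274 from limma, where 19.4% of all genes were called, 4.6% higher and 14.8% lower), and in the other 15 alternative fits IFNAR1 did not pass (adjusted p up to 0.697). At 42.0% GC, IFNAR1 has the transcript poorest in GC of the 9, and in NEAT1siRNA replicate 2 transcripts poor in GC were high across all genes. The part of this trend in the IFNAR1 values was not tested apart from its removal by a spline, after which the log2 fold change was -0.13 (adjusted p = 0.105 from limma).

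JAK1, the kinase shared by type I and type II interferon receptors (chromosome 1, 64833223 to 65067754, minus strand), had 89.4, 79.5 and 74.4 TPM with CsiRNA and 79.5, 86.8 and 74.1 TPM with NEAT1siRNA. The values of the groups interleaved, and the log2 fold change was -0.016 (95% confidence interval -0.21 to 0.18, adjusted p = 0.938 from limma), with a sign that turned in 6 of 16 other fits. With a mean of 9900 recovered reads per library, JAK1 was the most deeply sampled of the 9. TYK2, the kinase bound to IFNAR1 (chromosome 19, 10350533 to 10380608, minus strand), had 6.31, 5.81 and 6.72 TPM with CsiRNA and 5.66, 5.78 and 5.15 TPM with NEAT1siRNA. All 3 NEAT1siRNA values lay below the lowest control, 1 of them only just, and the NEAT1siRNA mean was 88.0% of the control mean. The log2 fold change of TYK2 was -0.16 (95% confidence interval -0.35 to 0.038, adjusted p = 0.299 from limma).

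STAT2 and IRF9, subunits of ISGF3, pointed in different directions, and neither passed the test. STAT2 (chromosome 12, 56341597 to 56360203, minus strand) had 4.88, 3.90 and 4.76 TPM with CsiRNA and 4.49, 3.65 and 3.68 TPM with NEAT1siRNA. The 2 lowest values were NEAT1siRNA libraries, but the third lay among the controls. Its log2 fold change was -0.16 (95% confidence interval -0.37 to 0.053, adjusted p = 0.339 from limma). IRF9, the DNA-binding subunit (chromosome 14, 24161234 to 24168043, plus strand), had 12.4, 11.1 and 12.7 TPM with CsiRNA and 13.4, 12.3 and 13.3 TPM with NEAT1siRNA. Replicates 1 and 3 of NEAT1siRNA were the highest of the 6 and replicate 2 was within the control range. The log2 fold change of IRF9 was 0.097 (95% confidence interval -0.095 to 0.29, adjusted p = 0.548 from limma). In GENCODE, IRF9 overlaps a gene on its own strand known by ID only (ENSG00000259529), so the division of reads between the pair is uncertain.

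IRF2 and IRF1, the antagonistic pair that bind the same sites, were higher in all silenced libraries but did not pass the test. IRF2 (chromosome 4, 184385702 to 184474558, minus strand) had 11.7, 10.8 and 11.5 TPM with CsiRNA and 13.4, 14.2 and 12.9 TPM with NEAT1siRNA, a mean at 119% of the control. All 3 NEAT1siRNA values exceeded the highest control. For IRF2 the log2 fold change was 0.23 (95% confidence interval 0.042 to 0.42, unadjusted p = 0.0185, adjusted p = 0.0952, from limma). IRF2 passed the threshold with quantile normalization (adjusted p = 0.00688 from limma), with median centring (0.00648), with voom on recovered reads (0.00819) and with the trend on GC content and length removed (0.00223, or 0.00457 with the replicate number as a block as well). Over all 16 other fits its log2 fold change ran from 0.19 to 0.30 and its adjusted p from 0.00223 to 0.326.

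IRF1 (chromosome 5, 132440440 to 132508719, minus strand) had 8.75, 7.29 and 7.83 TPM with CsiRNA and 8.86, 9.0 and 8.88 TPM with NEAT1siRNA. The silenced libraries were close to each other and just above the highest control. This gave a log2 fold change of 0.15 (95% confidence interval -0.044 to 0.34, adjusted p = 0.324 from limma). Like IRF2, IRF1 passed the threshold with quantile normalization (adjusted p = 0.0478 from limma), with median centring (0.0470), with voom (0.0471) and with the GC and length trend removed (0.00610, or 0.0127 with the block). Over its 16 other fits the log2 fold change ran from 0.095 to 0.24 and the adjusted p from 0.00610 to 0.709. Within a library the TPM ratio of IRF1 to IRF2 does not depend on scaling. It was 0.745, 0.673 and 0.684 with CsiRNA and 0.662, 0.634 and 0.691 with NEAT1siRNA, so the groups overlapped. IRF1 lies opposite the antisense gene IRF1-AS1, and whether the counting used strand is not given in the sources used here, so reads of the pair cannot be told apart.

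IRF3 and IRF7, the factors that drive interferon genes, had positive fold changes within the spread of the replicates. IRF3 (chromosome 19, 49659569 to 49665875, minus strand) had 20.8, 17.3 and 20.6 TPM with CsiRNA and 21.9, 20.2 and 20.3 TPM with NEAT1siRNA. Only CsiRNA replicate 2 was set apart, on the low side. For IRF3 the log2 fold change was 0.087 (95% confidence interval -0.11 to 0.28, adjusted p = 0.608 from limma), and without CsiRNA replicate 2 it was 0.0051. IRF3 overlaps BCL2L12 on the other strand, with the same limit as for IRF1. IRF7 (chromosome 11, 612553 to 615983, minus strand) had 1.01, 0.769 and 1.14 TPM with CsiRNA and 1.29, 1.05 and 0.946 TPM with NEAT1siRNA. The IRF7 groups overlapped (log2 fold change 0.087, 95% confidence interval -0.13 to 0.30, adjusted p = 0.640 from limma). IRF7 rested on a mean of 96.5 recovered reads per library, the fewest of the 9, and on the log2(TPM + 1) scale its change is understated. With a pseudocount of 0.1 it was 0.16 (adjusted p = 0.641 from limma), and with voom on those reads it was 0.21 (adjusted p = 0.388). Voom also scales libraries differently: the median of all genes was -0.0011 with it and -0.044 as reported.

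**Figure D2:**
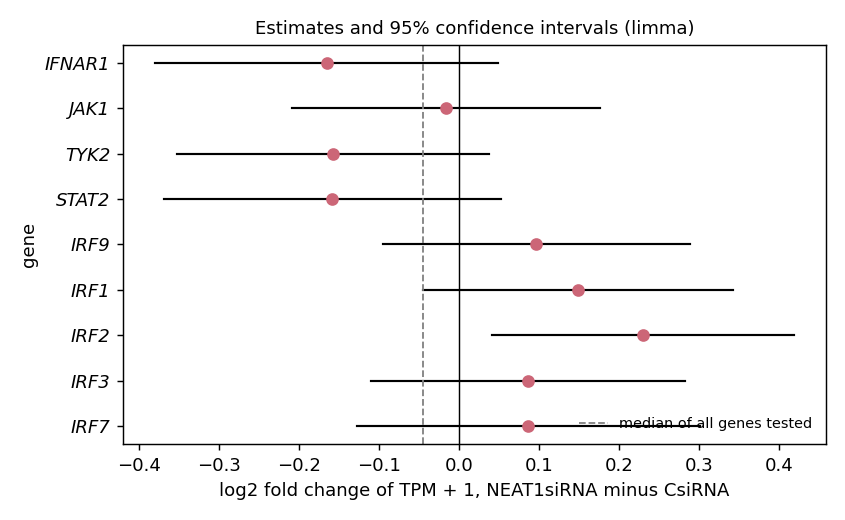
Log2 fold change of TPM + 1 (NEAT1siRNA minus CsiRNA, horizontal axis) for each of the 9 genes (vertical axis), with points for limma estimates and lines for 95% confidence intervals. The intervals of 8 genes cross 0 and that of IRF2 runs from 0.042 to 0.42. The dashed line is the median of all genes tested, at -0.044.

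In all, 0 of the 9 genes passed the threshold in the limma comparison, against 14% of all genes tested, and 1 (IRF2) had an unadjusted p under 0.05, against 27.4%. With voom on recovered reads 2 passed, IRF1 and IRF2, against 23% of genes, 11.1% higher and 11.9% lower. With quantile normalization, median centring and the GC and length trend removed the same 2 passed, against 20.4%, 19.7% and 33.8% of genes, and with the trend removed and the replicate block IRF9 was the third (adjusted p = 0.0335 from limma), against 33%. The 95% intervals of the 9 log2 fold changes of TPM + 1 lay between -0.38 and 0.42, so that larger changes on this scale lie outside them. This does not bound the fold change of TPM itself, which is understated on this scale for low genes such as IRF7 and STAT2. The groups did not overlap for 3 of the 9 genes (33.3%), a share near the 30.3% of all genes tested: 2 were higher with NEAT1siRNA (11% of all genes) and 1 was lower (19.3%). The 5 IRF genes had positive and the 4 others negative fold changes, with a median of 0.087 against -0.044 for all genes tested. This split of signs was not tested, and the sign of JAK1 turned in 6 of 16 other fits.

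**Figure D3:**
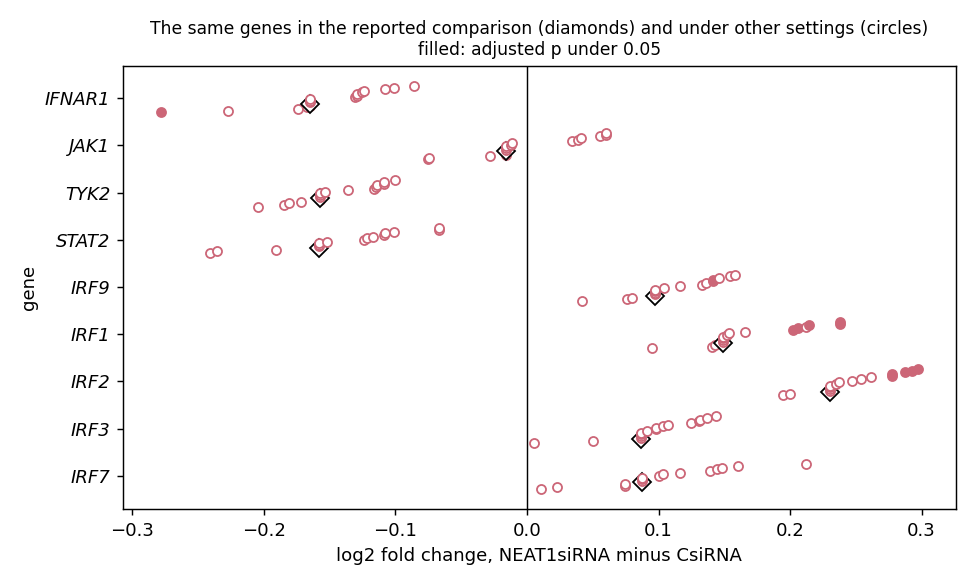
Log2 fold change (horizontal axis, NEAT1siRNA minus CsiRNA) of each gene (vertical axis) in the reported limma comparison (diamonds) and in the other fits (circles), filled where the adjusted p was under 0.05. IRF2 and IRF1 have filled circles in 5 fits each, IFNAR1 and IRF9 in 1 each, and points of JAK1 lie on both sides of 0.

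Ratios of TPM between the 9 genes were compared within libraries after the values had been seen. In 14 of the 36 pairs the CsiRNA and NEAT1siRNA ratios did not overlap, against 40% of all pairs of genes tested. The ratio of STAT2 to each of the 5 IRF genes was lower in all 3 NEAT1siRNA libraries than in any control, where 18.2% of all other genes had ratios to STAT2 that did not overlap. The ratio of TYK2 to each of the 5 IRF genes was lower in the same way, against 33.9%. Both shares count ratios that were higher or lower, so they are not like backgrounds for ratios that were all lower. The 5 ratios of a gene also share its values. STAT2 and TYK2 were singled out after these ratios were seen, and over the 9 genes this share of all other genes ran from 16.4% for IRF7 to 67.9% for IRF2. Within ISGF3, the ratio of STAT2 to IRF9 was 0.393, 0.351 and 0.374 with CsiRNA and 0.335, 0.298 and 0.276 with NEAT1siRNA, a log2 difference of -0.30. The ratio of STAT2 to IRF3 was 0.234, 0.225 and 0.231 with CsiRNA and 0.205, 0.181 and 0.181 with NEAT1siRNA. Ratios that do not overlap always give p = 0.1 in a two-sided exact permutation test, the smallest that 3 against 3 libraries can give. For these 14 pairs the test therefore only restates that the groups did not overlap, and none can pass a threshold of 0.05. The pairs share genes and libraries and are not independent of each other.

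Upstream of the receptor, interferon genes themselves were barely detected. Of 21 interferon genes with a row, 14 were at 0 in every library, and none reached a mean of 1 TPM. IFNB1, the interferon that IRF3 induces first, had 3 recovered reads in the 6 libraries together. IFNE, an interferon made constitutively in some epithelia, was the highest, with 15, 14 and 12 reads in the CsiRNA libraries and 6, 9 and 6 in the NEAT1siRNA libraries. The groups did not overlap for IFNE, which was too low to be tested. Of all genes tested, which average 1 TPM or more, 19.3% were lower in all NEAT1siRNA libraries than in any control. The share among genes as low as IFNE is not given here, so 19.3% is not a like background for it.

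Among other components of the pathway, counts past the threshold are read against the 14% of all genes tested that were called and the 27.4% at an unadjusted p under 0.05. Of 13 other receptor, JAK and STAT genes 9 were tested and 0 passed in limma (1, IFNGR2, had an unadjusted p under 0.05), with a median log2 fold change of 0.051. IRF4, IRF5 and IRF8 were under 1 TPM, and 0 of 3 genes of IRF2-binding proteins passed in limma (1, IRF2BPL, at an unadjusted p under 0.05). Of 10 tested adaptors and kinases upstream of IRF3 and IRF7, such as MAVS, TBK1 and MYD88, 0 passed in limma, also at an unadjusted p under 0.05, with a median of -0.020.

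Among 9 tested negative regulators of the pathway, 1 rose, against 4.99% of all genes called higher, so that the count does not set the list apart. It was PTPN1, a phosphatase known to act on JAK2 and TYK2, which had 34.2, 32.6 and 33.5 TPM with CsiRNA and 42.1, 42.5 and 37.4 TPM with NEAT1siRNA. The groups were well apart, and the log2 fold change was 0.27 (adjusted p = 0.0429 from limma). The call for PTPN1 was lost when any library but NEAT1siRNA replicate 3 was left out (adjusted p from limma of 0.106, 0.172 and 0.0683 without CsiRNA replicates 1, 2 and 3, and of 0.131 and 0.0503 without NEAT1siRNA replicates 1 and 2), and with no filter on TPM (0.0828). Of the 31 tested genes in all of these lists, 1 was higher in the reported comparison, and 6 were with voom on recovered reads, quantile normalization or median centring, IFNGR2, IRF2BPL and MYD88 among them. In the same fits the genes higher in all numbered 535 as reported and 1185, 1082 and 1158 of 10721. With the GC and length trend removed 12 of the 31 were higher and 2 lower, where 1678 of all 10106 genes were higher and 1742 lower.

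Downstream, 17 of 36 tested interferon-stimulated effector genes rose in BT-549/NEAT1siRNA cells and 0 fell past the threshold in limma (47.2%, where 4.99% of all genes tested were called higher). A further 7 effector genes were too low to be tested. Over the 36 the log2 fold changes had a median of 0.26, and 35 had a positive sign. The number that rose was 11 without CsiRNA replicate 3 and between 13 and 15 without any other library, and it was 5 of 43 with no filter on TPM (242 of 18531 genes in all were higher). It was 21 with quantile normalization, 25 with median centring and 23 with voom (1082, 1158 and 1185 of all 10721 genes), and 27 with the GC and length trend removed, or 28 with the block (1678 and 1655 of 10106 genes). OAS1, which makes the 2′-5′ oligoadenylates that activate RNase L, rose from 3.12, 3.06 and 2.96 TPM to 5.10, 5.75 and 5.45 TPM, a log2 fold change of 0.67, the largest of the list on the log2(TPM + 1) scale. IFI44L went from 1.45, 1.25 and 1.29 TPM to 2.51, 2.87 and 2.26 TPM, a log2 fold change of 0.60. With a pseudocount of 0.1 IFI44L was ahead of OAS1 (0.89 against 0.81), as it was with voom (0.99 against 0.88). PARP9, a partner of the ubiquitin ligase DTX3L, went from 7.52, 6.74 and 6.74 TPM to 10.6, 11.2 and 9.99 TPM, a log2 fold change of 0.53. OAS2, another oligoadenylate synthetase, went from 4.89, 4.94 and 4.84 TPM to 7.41, 8.13 and 6.82 TPM, a log2 fold change of 0.52. In each of these 4 genes the silenced libraries all lay above the controls, as in 11% of all genes tested. They passed in every other fit that held them, with an adjusted p from limma or voom of at most 0.0299 (a minimum mean of 5 TPM leaves out OAS1 and IFI44L). The 4 were picked as the largest changes past the threshold, and the other fits reuse the same libraries. Neither result is therefore further support for them. IFIT1, shown above for its ISRE cores, went from 2.42, 2.34 and 2.15 TPM to 2.77, 4.35 and 3.11 TPM (log2 fold change 0.40, adjusted p = 0.0173 from limma). Whether the effector genes changed more than the 9 signalling genes was not tested.

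**Figure D4:**
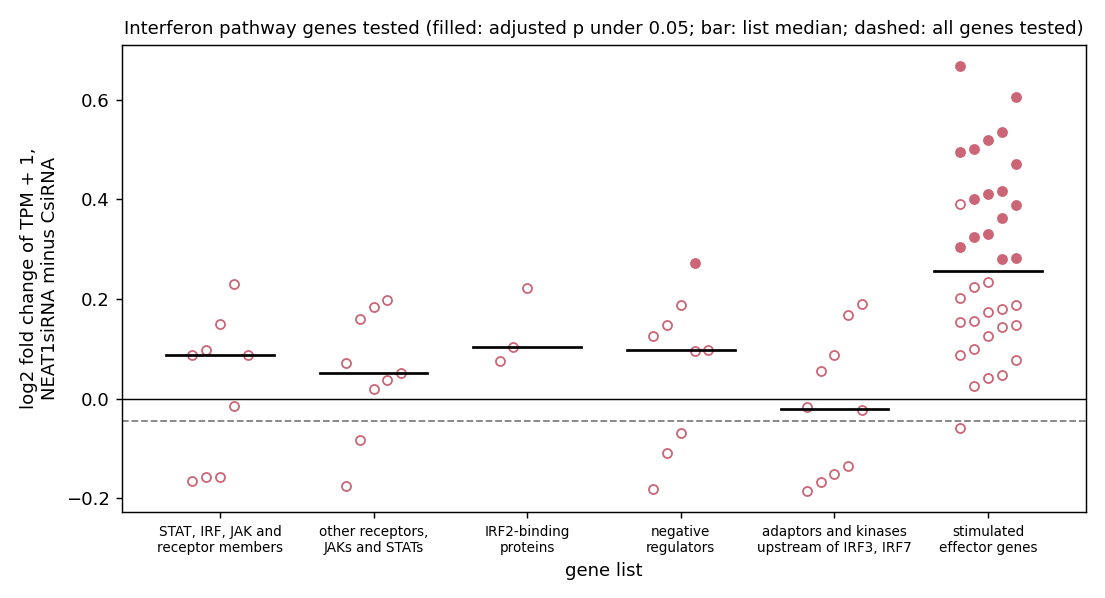
Log2 fold change of TPM + 1 (vertical axis, NEAT1siRNA minus CsiRNA) of every tested gene in each interferon gene list (horizontal axis). Circles are genes, filled at an adjusted p under 0.05 from limma, black bars are list medians and the dashed line is the median of all genes tested. Filled circles are found for 17 effector genes and for the negative regulator PTPN1.

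Over the 6 libraries, the mean of log2(TPM + 1) of STAT2 and IRF9 lay between 2.95 and 3.15 with CsiRNA and between 2.97 and 3.15 with NEAT1siRNA. STAT2 and IRF9 themselves had a Pearson r of 0.20 over these libraries. The tested genes with the pattern most similar to their mean were C11ORF94, SRCAP, RGP1, TSPYL2 and DPF1, with Pearson r of 0.97 to 0.99 (n = 6 libraries, which share depth and GC trends). They were picked as the highest among all other genes tested, a search that itself favours a high r over so few libraries. No r was tested. SRCAP, which encodes a chromatin remodelling ATPase, had 13.2, 10.8 and 13.5 TPM with CsiRNA and 13.7, 11.3 and 11.6 TPM with NEAT1siRNA. Its low values in CsiRNA replicate 2 and in NEAT1siRNA replicates 2 and 3 are those at which STAT2 was low too, while IRF9 was near its highest value in NEAT1siRNA replicate 3.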

How the data were processed

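The authors prepared stranded mRNA libraries, aligned reads to GRCh38 with STAR and deposited TPM per gene and library (the counting program is not given in the sources used here), with a second table that holds, per gene, a mean normalized count (a signal: counts scaled by DESeq2 size factors, then averaged) and the log2 fold changes and p-values of their own comparison, which were not used. TPM keep no depth, so reads were recovered by joining the deposited tables: whole numbers (to 0.05) resulted for 99.8% of nonzero values at a mean normalized count below 5, for 76.1% from 50 to 500 and for 19.8% above, so reads of high genes are approximate. A set of 4 short noncoding RNAs held 64.4% to 68.1% of each library's TPM.

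Groups followed the sample titles. Log2(TPM + 1) of genes averaging 1 TPM or more was compared in limma 3.58.1 (R 4.3.3; lmFit, eBayes with a trend), two-sided, with Benjamini-Hochberg adjustment over all genes tested and a threshold of 0.05. Fold changes on this scale understate those of low genes. Standard errors and 95% intervals are those of the moderated test. They combine the spread of each gene between these cultures with a variance trend over all genes tested. They are therefore not a measure of the replicate spread of 1 gene alone. An exact permutation test of 3 against 3 libraries cannot go below p = 0.1. Coordinates, GC content and transcript length came from GENCODE v44 (GRCh38) by symbol, for 94.3% of genes tested. Alternatives were a pseudocount of 0.1, no filter or a mean of at least 5 TPM, quantile normalization, median centring, eBayes without trend, voom on recovered reads, removal of a spline on GC content and length from each library, the replicate number as a block, and leaving out each library. Named are the 9 genes, NEAT1, list genes past the threshold (for effector genes the 4 with the largest change) and the 5 genes most like the mean of STAT2 and IRF9; IFNGR2, IRF2BPL, IFIT1, IFNE, IFNB1 and other list genes were named after their values were seen. The 9 genes, lists and settings were chosen with earlier results of these data known. Other computations used Python 3.11.15, numpy 2.4.6, pandas 2.3.3 and matplotlib 3.10.9. Some genes are not reported here.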

Additional observations from a re-analysis of the deposited data

How the results depend on the processing

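The number of the 9 signalling genes past the threshold, 0 as reported, was 2 with quantile normalization, with median centring, with voom on recovered reads and with the trend on GC content and length removed, 3 with that trend removed and the replicate block, and from 0 to 1 with each library left out. The number of all genes changed, 1498, was 505 with no filter on TPM, 2464 with voom, 3420 with the trend removed and 3334 with the block as well, and ran from 759 to 2083 with each library left out. The 18 changed genes of the pathway lists became 5 with no filter, 10 at a mean TPM of at least 5, 31 with median centring, 29 with voom, 41 with the trend removed with or without the block, and from 11 to 16 with each library left out. The cause of these shifts was not tested, except that the higher minimum leaves fewer genes. JAK1 turned positive with median centring (0.041), voom (0.035), the trend removed with or without the block (0.060), and without CsiRNA replicate 1 (0.056) or NEAT1siRNA replicate 3 (0.039), and ran from -0.075 to 0.056 with each library left out. The other 8 genes and NEAT1 kept their sign in every fit. With the replicate number as a block on its own, 1640 genes changed and 0 of the 9 did, so that without the trend removal this pairing changed no call among them. Added to the trend removal, it took the adjusted p of IRF9 from 0.0967 to 0.0335 in limma. Same-numbered libraries deviated with r of -0.030, 0.25 and -0.11, where differently numbered ones ran from -0.40 to 0.40. With 3 libraries per group and the GC trend in them, these values cannot tell whether same-numbered cultures were handled together. Depth limits IRF7 most, at 96.5 reads per library.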
